A study of Mus musculus with 10 samples.

Results

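The 45 genes described here encode proteins of the nucleolus that make ribosomes. They were named by known function, in a list drawn up with earlier results of these data known, and they make up 45 of the 23992 gene symbols in the deposited tables. For the 6 members with several transcript rows, the row with the highest mean reads was used. By role they were 4 genes of RNA polymerase I transcription, 3 of the box C/D and 4 of the box H/ACA small nucleolar ribonucleoproteins (snoRNPs), 7 of the nucleolar scaffold and growth, 15 of small subunit assembly and 12 of large subunit assembly.

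The libraries hold RNA of regulatory T cells (Tregs, Foxp3-expressing CD4 T cells that restrain immune responses) of C57BL/6J mice, in 4 groups. Lung Tregs came from allergic lung tissue of ovalbumin-immunized (OVA-immunized) mice, either Crlf2fl/fl Foxp3YFP-Cre (Crlf2-deleted, labelled as a conditional knock-out, 3 libraries) or Foxp3YFP-Cre alone (control, labelled wild-type, 3 libraries). Both lung groups therefore carry Cre recombinase in the Foxp3 gene, and Crlf2, which encodes a chain of the receptor for the epithelial cytokine TSLP, is removed only in cells that have expressed Foxp3. Wild-type natural Tregs of the spleen were kept in culture for 24 h and stimulated through the T cell receptor (TCR) by anti-CD3 and anti-CD28 antibodies, with added TSLP (TCR + TSLP, 2 libraries) or without it (TCR, 2 libraries). The amount of TSLP, the age of the mice, the sorting of the lung cells, the floxed exons, any pooling and the origin of the replicates from separate animals or cultures are not stated in these sources. The p-values below therefore cover only the spread between the libraries at hand, which may be technical.

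Ribosomes are built in the nucleolus, where RNA polymerase I copies the ribosomal DNA into 1 long precursor RNA. snoRNPs then modify bases of that precursor, box C/D particles by methylating riboses and box H/ACA particles by turning uridines into pseudouridines. Separate sets of assembly factors fold, cut and export the small and the large subunit. Resting T cells make few ribosomes, and activation through the TCR enlarges the nucleolus. Myc, a transcription factor that TCR signals induce, is known to drive many of these genes.

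Gene reads per library were 9647686 to 18349039 in Crlf2-deleted lung, 1439675 to 12179230 in control lung, 34852308 to 51671901 with TCR + TSLP and 27237313 to 27866031 with TCR, and control lung library 2 was the shallowest. The targeted gene Crlf2 stood at 2.46 to 6.24 normalised RPKM in the Crlf2-deleted lung libraries and at 63.6 to 99.2 in the control lung libraries. Levels here are normalised RPKM, that is reads per kilobase of listed transcript relative to the library's gene reads (the usual RPKM scale) after scaling for composition over all 10 libraries. Foxp3 was detected in every library, at 94.4 to 120 normalised RPKM in Crlf2-deleted lung, 48.4 to 115 in control lung, 39.1 to 43.6 with TCR + TSLP and 44.6 to 50.7 with TCR. All 7 measured T cell markers were detected in each library. The summed level of 8 lung epithelial markers ran from 4430 to 35200 in Crlf2-deleted and from 31800 to 154000 in control lung, whereas it was 10.4 to 17.5 over the spleen libraries, with Sftpc and Scgb1a1 at 0 reads in all 4. Control lung library 3 stood apart by high myeloid (3810), B cell (227) and erythroid (177000) marker sums, against at most 323, 14.6 and 7160 in the other control lung libraries. The myeloid, B cell and erythroid sums of the Crlf2-deleted lung libraries were 806 to 841, 10.4 to 19.5 and 2020 to 2890. In spleen the B cell sum was 49.4 to 49.7 with TCR + TSLP against 76.4 to 83.2 with TCR. The CD8 T and NK cell sum was 14.4 to 14.7 against 23.8 to 24.6, and the T cell sum 1430 to 1450 against 1970 to 1980. Treg sums overlapped, at 1580 to 1600 against 1510 to 1630. The part of these differences in the results with TSLP was not tested.

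The 45 genes took a smaller share of gene reads in the lung Tregs than in the cultured spleen Tregs. They made up 1.30% and 1.26% of gene reads with TCR + TSLP and 1.06% and 1.09% with TCR, so that the groups did not overlap in raw read share. Per kilobase they did, with summed levels of 5530 and 5230 normalised RPKM with TCR + TSLP and 4990 and 5500 with TCR. In lung they made up 0.256%, 0.25% and 0.26% in Crlf2-deleted libraries and 0.242%, 0.272% and 0.231% in control libraries, and these ranges overlapped. In bulk samples, fewer cells of a type and less RNA per cell cannot be told apart.

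**Figure D1:**
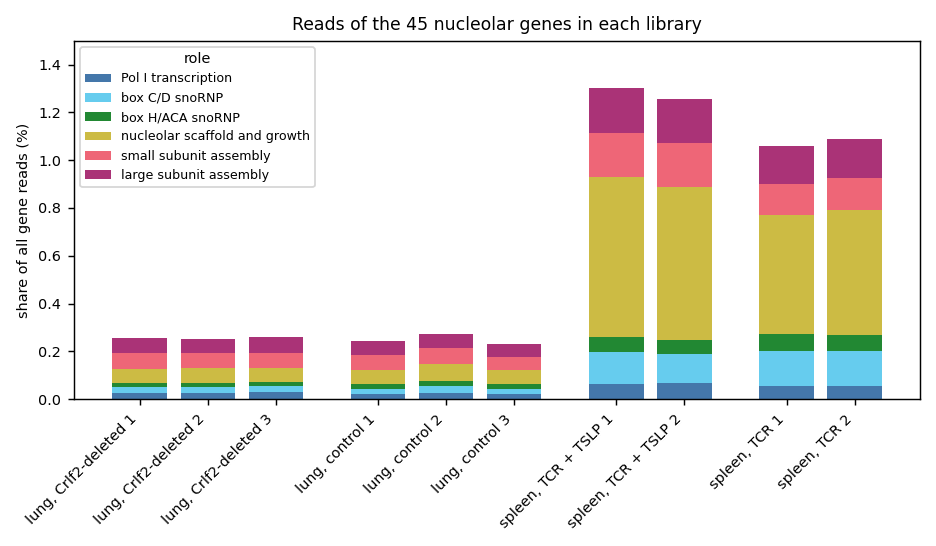
Each bar is 1 library and its height is the share of all gene reads, in percent, that fell on the 45 nucleolar genes, divided by role. The 4 spleen bars reach 1.06% to 1.30% and the 6 lung bars 0.231% to 0.272%.

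Nucleophosmin (Npm1, chr11:33152498-33164142, minus strand) and nucleolin (Ncl, chr1:86344719-86359455, minus strand), abundant RNA-binding proteins of the granular and the dense nucleolar zones, were the members with the most reads in spleen. The pair took 37.0% to 38.5% of the members' reads with TCR + TSLP and 35.3% to 36.3% with TCR. In lung the pair took 12% to 13.2% in Crlf2-deleted and 13.0% to 16.8% in control libraries. Npm1 had the highest level of all members in both spleen groups, at 1730 and 1580 normalised RPKM with TCR + TSLP and 977 and 1400 with TCR. Processed copies of Npm1 exist elsewhere in the mouse genome and how reads that map to several places were treated is not stated, so its level is uncertain. Ncl was listed with a transcript of 8257 bp, the second longest of the 45 after Utp20 (8831 bp), which bears on its level per kilobase.

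The order of the members by mean level was much alike within a tissue and less so between tissues. Over the 45 genes, which share their libraries, Pearson's r of the log2 mean levels was 0.97 between TCR + TSLP and TCR, 0.98 between Crlf2-deleted and control lung, and 0.82 between control lung and TCR. At the low end, Utp20 and Noc3l were at 12 to 12.3 and 14.4 to 14.6 normalised RPKM with TCR + TSLP and at 8.1 to 8.2 and 9.47 to 9.96 with TCR. The fewest reads behind any value were the 5 of Noc3l in control lung library 2.

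**Figure D2:**
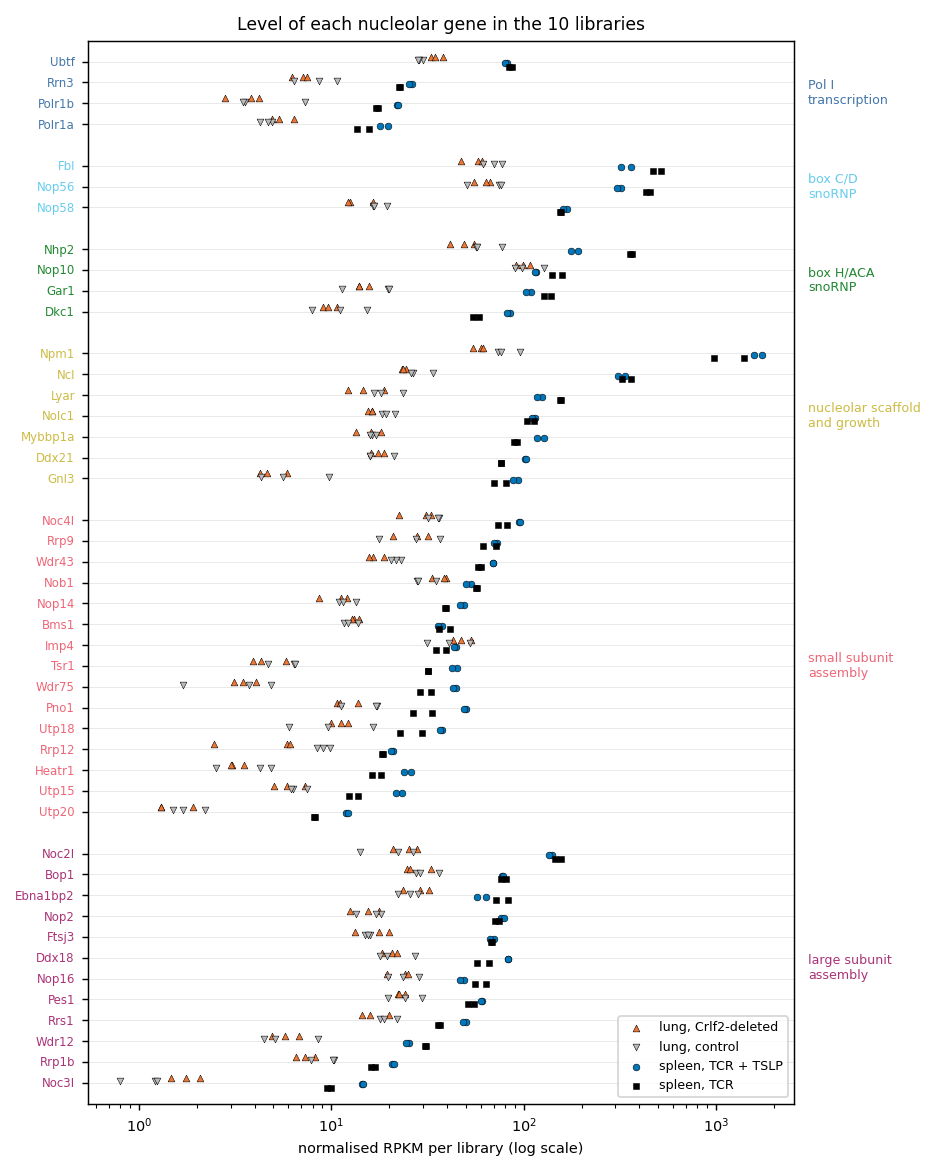
Each point is the normalised RPKM of 1 gene in 1 library, on a log scale, with genes grouped by role and ordered within a role by their TCR level. For 43 of the 45 genes every lung point lies left of every spleen point, the exceptions being Nop10 and Imp4.

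The comparison of TCR + TSLP with TCR asked what TSLP adds to TCR-stimulated spleen Tregs. Of the 45 members, 17 were higher with TSLP, 9 were lower and 19 were not called at an adjusted p of 0.05 (edgeR quasi-likelihood test, Benjamini-Hochberg over all 13214 genes tested). Among all genes tested, 22.7% were higher and 23.1% lower. The median log2 fold change of the members was 0.14, beside 0.01 over all genes. The changes were small, with log2 fold changes from -1.02 to 0.74, and both directions occurred. Small subunit factors were called higher in 8 of 15 cases and lower in 0, while 5 of the 7 snoRNP proteins were called lower and 1 higher. The difference between roles was not tested. The calls of the snoRNP proteins depended on the setting, with 2 lower and 2 higher once a trend on transcript length was removed. With limma on log2(RPKM + 1), 1 was lower and 2 were higher. Small subunit factors were called higher in 11 and 12 of 15 cases under these 2 settings and lower in 0. Of all genes, 24.9% and 43% were then higher. With all 4 groups in 1 fit, 1 of 15 small subunit factors was called higher (3.75% of all genes).

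Of the 4 members of RNA polymerase I transcription, 2 were called higher and 0 lower, beside 22.7% and 23.1% of all genes tested. Polr1a, the largest subunit of the polymerase, had 18.0 and 19.8 normalised RPKM with TCR + TSLP against 15.7 and 13.7 with TCR, which is 0.32 higher on the log2 scale (SE 0.10, adjusted p = 0.0381). Polr1b, the second largest subunit, had 21.9 and 22.3 with TCR + TSLP against 17.5 and 17.2 with TCR (log2 fold change 0.31, SE 0.09, adjusted p = 0.0221). For both genes the higher group lay wholly above the other, as it did with TSLP higher in 5034 of the 13214 genes tested. Rrn3, which brings the polymerase to the promoter, and Ubtf, which keeps ribosomal DNA open, were not called, with log2 fold changes of 0.15 (SE 0.09, adjusted p = 0.212) and -0.13 (SE 0.08, adjusted p = 0.256).

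Of the box C/D core proteins, the methyltransferase and 1 of its scaffold partners were lower with TSLP. Fbl (fibrillarin, the methyltransferase, chr7:28168893-28179269, plus strand) had 362 and 321 normalised RPKM with TCR + TSLP against 469 and 517 with TCR. Its log2 fold change was -0.57, with an SE of 0.10 (adjusted p = 0.00283), but the call was lost once the length trend was removed (-0.17, adjusted p = 0.108). Nop56 (chr2:130274367-130279313, plus strand) had 322 and 304 with TCR + TSLP against 455 and 431 with TCR, giving a log2 fold change of -0.54 with an SE of 0.09 (adjusted p = 0.00212). Nop58, the paralog of Nop56 in the same particle, did not follow, with 168 and 160 with TCR + TSLP against 154 and 157 with TCR (log2 fold change 0.03, SE 0.08, adjusted p = 0.782). Both Nop56 and Nop58 host snoRNA genes in their spans (5 and 4 in the annotation), and Nop56 overlaps exons of Idh3b on the opposite strand, whose reads cannot be told apart from its own unless strand was used in counting.

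The box H/ACA particle showed the widest spread of all roles. Nhp2, a core protein that binds the guide RNA (chr11:51619773-51623718, plus strand), had 192 and 177 normalised RPKM with TCR + TSLP against 368 and 359 with TCR. Its log2 fold change of -1.02 (SE 0.09, adjusted p = 0.000183) was the largest of any member, 2.03-fold lower with TSLP. Nop10 had 116 and 114 with TCR + TSLP against 141 and 158 with TCR (log2 fold change -0.42, SE 0.10, adjusted p = 0.00808). Gar1, another core protein, had 109 and 103 with TCR + TSLP against 139 and 127 with TCR (log2 fold change -0.38, SE 0.09, adjusted p = 0.0118). In contrast Dkc1 (dyskerin, the pseudouridine synthase itself) was higher, with 85.3 and 82.4 with TCR + TSLP against 54.9 and 58.5 with TCR (log2 fold change 0.52, SE 0.09, adjusted p = 0.00216). In all 4 genes the groups did not overlap. This was so in 5034 genes with TSLP higher and in 4932 with it lower, of 13214 tested. Nhp2 and Dkc1 kept their calls in opposite directions once the length trend was removed (-0.54 and 0.49), whereas Gar1 was then at -0.03 (adjusted p = 0.83) and Nop10 turned to 0.29 (adjusted p = 0.0286). Nhp2 overlaps exons of Rmnd5b and Dkc1 those of Mpp1, each on the opposite strand.

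Scaffold and growth proteins went both ways. Ddx21, an RNA helicase that senses polymerase I and II output, had 102 and 103 normalised RPKM with TCR + TSLP against 76.4 in both TCR libraries (log2 fold change 0.38, SE 0.08, adjusted p = 0.00676). Mybbp1a, a Myb-binding nucleolar protein, had 118 and 128 with TCR + TSLP against 88.8 and 92.8 with TCR (log2 fold change 0.39, SE 0.09, adjusted p = 0.00766). Lyar, a nucleolar zinc finger protein, was lower, with 125 and 117 with TCR + TSLP against 155 and 157 with TCR (log2 fold change -0.41, SE 0.09, adjusted p = 0.00581). Npm1 was above the TCR libraries in both TCR + TSLP libraries, yet the TCR libraries were far apart and it was not called (log2 fold change 0.43, SE 0.16, adjusted p = 0.056). Ncl had 335 and 308 with TCR + TSLP against 362 and 326 with TCR, overlapping values that were not called (log2 fold change -0.14, SE 0.10, adjusted p = 0.281). Gnl3 (nucleostemin) and Nolc1, a chaperone of snoRNPs, were at log2 fold changes of 0.23 (SE 0.10, adjusted p = 0.0944) and 0.01 (SE 0.09, adjusted p = 0.913).

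Small subunit factors, the largest role, had 8 of 15 genes called higher and 0 lower, beside 22.7% and 23.1% of all genes tested. Utp15, a member of the complex that couples transcription to early processing (chr13:98246845-98262992, minus strand), had 23.3 and 21.6 normalised RPKM with TCR + TSLP against 12.4 and 13.8 with TCR. It was 1.67-fold higher in the TCR + TSLP libraries (log2 fold change 0.74, SE 0.10, adjusted p = 0.000956). Pno1, which guards the immature end of the small subunit RNA, had 50.0 and 48.9 with TCR + TSLP against 26.6 and 33.6 with TCR (log2 fold change 0.67, SE 0.12, adjusted p = 0.00313). Utp20, a long scaffold protein of the early precursor, had 12 and 12.3 with TCR + TSLP against 8.1 and 8.2 with TCR (log2 fold change 0.53, SE 0.09, adjusted p = 0.00201). The other 5 genes called higher were Heatr1 (0.49), Utp18 (0.46), Wdr75 (0.46), Tsr1 (0.41) and Nop14 (0.25) in log2 fold change. Each had groups that did not overlap, as 5034 of all 13214 genes did with TSLP higher. The 7 that were not called lay between -0.18 (Nob1, the nuclease that makes the final cut) and 0.25 (Noc4l).

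A promoter of 300 bases around the gene start was listed by RefSeq (GRCm38.p6) for 40 of the 45 members, 49 promoters in all. The E-box CACGTG, the letters that Myc and its partner Max bind and the same on both strands, lay in 10 of these 49 promoters (20.4%), beside 7.15% of all 32851 promoters listed and 9.84% of the promoters of genes that entered the test. By role it lay in 6 of 14 small subunit promoters, 2 of 14 large subunit, 1 of 9 polymerase I, 1 of 6 scaffold, 0 of 2 box C/D and 0 of 4 box H/ACA promoters. The promoters of 4 small subunit genes that were higher with TSLP and hold it are printed first, 5′ to 3′ in the direction of the gene, with the E-box in capitals, and Nhp2, the member that fell most, is printed after them as one that lacks it.
Pno1 promoter, chr11:17211540-17211839, minus strand: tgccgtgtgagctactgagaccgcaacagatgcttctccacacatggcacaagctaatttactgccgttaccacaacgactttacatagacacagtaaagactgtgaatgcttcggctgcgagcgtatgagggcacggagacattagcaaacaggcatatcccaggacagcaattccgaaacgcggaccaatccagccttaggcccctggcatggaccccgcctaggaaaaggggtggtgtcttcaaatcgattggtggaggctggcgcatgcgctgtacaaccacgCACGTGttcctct
Tsr1 promoter, chr11:74897830-74898129, plus strand: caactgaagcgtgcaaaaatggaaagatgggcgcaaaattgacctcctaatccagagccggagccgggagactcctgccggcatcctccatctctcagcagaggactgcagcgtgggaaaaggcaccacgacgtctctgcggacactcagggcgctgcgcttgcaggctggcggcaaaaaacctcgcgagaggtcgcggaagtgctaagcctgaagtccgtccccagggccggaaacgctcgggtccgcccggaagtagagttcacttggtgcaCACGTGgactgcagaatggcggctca
Utp18 promoter, chr11:93885717-93886016, minus strand: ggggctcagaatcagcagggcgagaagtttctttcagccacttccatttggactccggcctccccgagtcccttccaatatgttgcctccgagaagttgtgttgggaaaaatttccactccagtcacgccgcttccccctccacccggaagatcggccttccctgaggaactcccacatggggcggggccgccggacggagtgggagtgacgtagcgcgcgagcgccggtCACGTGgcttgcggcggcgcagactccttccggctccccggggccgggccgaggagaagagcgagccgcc
Utp20 promoter, chr10:88826765-88827064, minus strand: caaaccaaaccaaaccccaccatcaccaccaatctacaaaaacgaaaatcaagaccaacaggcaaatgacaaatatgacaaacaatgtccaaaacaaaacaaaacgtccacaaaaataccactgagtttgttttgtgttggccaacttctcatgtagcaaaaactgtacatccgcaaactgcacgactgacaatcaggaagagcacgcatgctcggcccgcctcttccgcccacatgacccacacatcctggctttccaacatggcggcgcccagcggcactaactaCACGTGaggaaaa
Nhp2 promoter, chr11:51619523-51619822, plus strand: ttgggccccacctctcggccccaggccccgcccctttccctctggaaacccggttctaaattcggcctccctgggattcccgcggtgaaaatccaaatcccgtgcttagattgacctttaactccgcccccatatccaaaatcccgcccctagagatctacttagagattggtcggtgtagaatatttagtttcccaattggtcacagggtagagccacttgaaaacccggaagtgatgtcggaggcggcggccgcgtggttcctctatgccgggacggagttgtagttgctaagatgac
In these windows the E-box starts 37 bases after the first transcribed base in Pno1 and in Utp20, 24 bases after it in Tsr1 and 20 bases before it in Utp18. The other promoters with an E-box were those of Imp4, Mybbp1a, Nop2, Pes1, Rrn3 and Wdr43, of which Mybbp1a alone was called higher with TSLP. The other small subunit genes called higher, Utp15, Heatr1, Wdr75 and Nop14, had no E-box in the promoters listed. Nor did Dkc1, Ddx21, Noc3l, Ddx18, Polr1a, Polr1b and Rrp1b, which were also called higher. The median log2 fold change with TSLP was 0.30 over the 10 members with an E-box and 0.02 over the 30 without. The same medians were -0.21 and -0.12 for Crlf2-deleted against control lung, and -1.39 and -2.06 for control lung against TCR. These medians describe the genes and were not tested. Of the other motifs searched on both strands, the ETS site CCGGAAG lay in 26.5% of members' promoters (8.86% of all listed and 17.1% of those of tested genes), CCAAT in 30.6% (37.4% and 38.0%) and TATAAA in 4.08% (13.6% and 7.15%). Promoters of Bop1, Fbl, Npm1, Rrp12 and Rrs1 were not used here.

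Of 12 large subunit factors, 4 were called higher, 3 lower and 5 in neither direction, which is near the shares over all genes tested (22.7% higher and 23.1% lower). Noc3l, which in yeast accompanies the precursor toward the nucleoplasm, had 14.4 and 14.6 normalised RPKM with TCR + TSLP against 9.96 and 9.47 with TCR (log2 fold change 0.53, SE 0.09, adjusted p = 0.00282). Rrs1 (0.39), Ddx18 (0.38) and Rrp1b (0.30) were also higher, in log2 fold change. The lower genes were Ebna1bp2 (-0.40), Nop16 (-0.36) and Wdr12 (-0.35). Wdr12 forms a trimer with Pes1 and Bop1 that is needed to mature the large subunit RNA, and only Wdr12 of the 3 was called. Wdr12 had 25.5 and 24.4 with TCR + TSLP against 31.0 and 30.7 with TCR, whereas Pes1 and Bop1 were at log2 fold changes of 0.14 (adjusted p = 0.21) and -0.06 (adjusted p = 0.559). Nop2, an RNA methyltransferase and an old marker of cell growth, had 76.0 and 79.0 with TCR + TSLP against 71.4 and 74.4 with TCR (log2 fold change 0.04, adjusted p = 0.692).

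**Figure D3:**
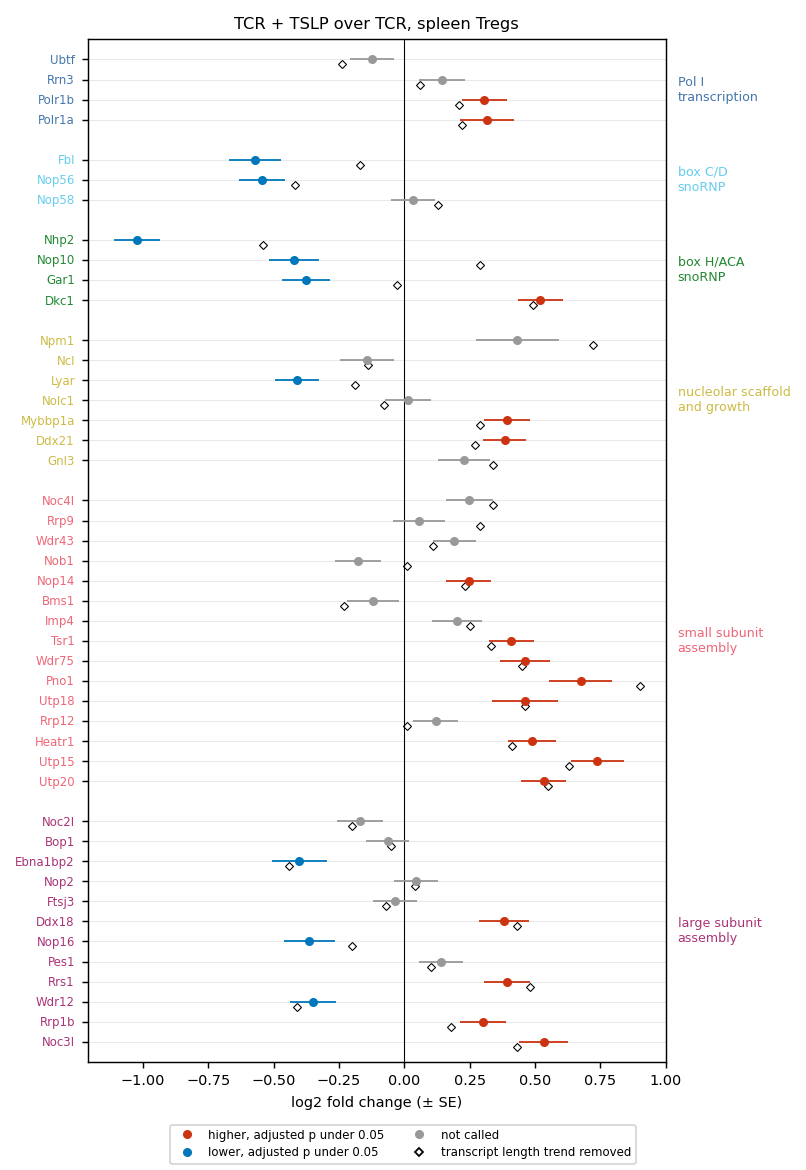
Points give the log2 fold change of TCR + TSLP over TCR with its SE for each of the 45 genes, and open diamonds the same after a trend on transcript length was removed. Nhp2 lies farthest left at -1.02 and Utp15 farthest right at 0.74, while the diamond of Nop10 lies at 0.29, on the other side of 0.

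The signed log2 fold change rose with transcript length and fell with GC content, in the members as in all genes. The members' Spearman correlation of log2 fold change with length was 0.39 and with GC content -0.48, beside 0.35 and -0.32 over all genes tested. The 5 members under 1500 bp (Nop10, Nhp2, Fbl, Gar1 and Npm1) had a median of -0.42, beside -0.52 for all genes of that length. The 18 members of 3000 bp or more had a median of 0.30, beside 0.18. With the length trend removed, 21 members were higher and 5 lower (24.9% and 17.4% of all genes). Besides the snoRNP genes given above, Nop56 was then at -0.42, Utp15 at 0.63, Pno1 at 0.90, Utp20 at 0.55 and Npm1 at 0.72 (edgeR adjusted p = 0.00493).

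**Figure D4:**
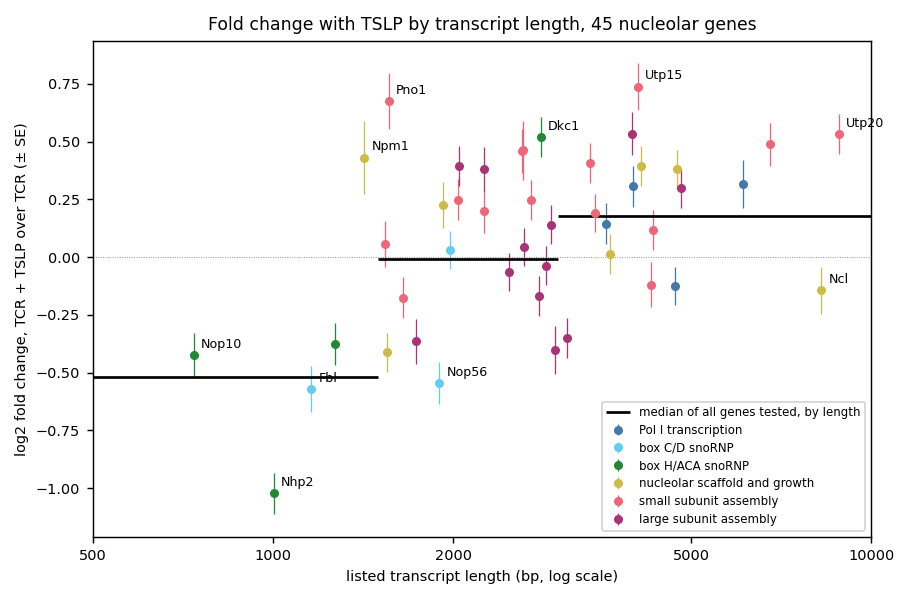
The log2 fold change of TCR + TSLP over TCR, with its SE, is set against the listed transcript length on a log scale, with black lines at the median of all genes tested in 3 length ranges. The lines lie at -0.52, -0.01 and 0.18, and Npm1 and Pno1 stand above the genes of like length.

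How many members counted as higher depended on the setting. With library totals as the only scaling, 29 members were higher and 3 lower (38.3% and 15.1% of all genes), and the median of all genes itself shifted to 0.24. Relative to all genes the members' median was 0.13 under either scaling. On the authors' RPKM (limma on log2(RPKM + 1)) 27 were higher and 1 lower (43% and 9.45% of all genes), with a median of 0.49 beside 0.20 over all genes. The scaling, the input values and the test all changed together in that setting. Over the 15 settings fitted to these 4 libraries alone, 11 members were called higher in every one (Dkc1, Mybbp1a, Heatr1, Wdr75, Utp20, Utp15, Tsr1, Pno1, Noc3l, Ddx18 and Rrs1) and Nhp2 lower in every one. The share of all genes that met the same rule was not counted. Single settings among the 15 called 18.8% to 43% of all genes higher and 9.45% to 33% lower. The calls also rested on single libraries, with 7 higher and 5 lower without TCR + TSLP library 1 (12.7% and 14.9% of all genes), and 9 higher and 3 lower without TCR + TSLP library 2 (10.6% and 13.1%). Utp15 and Nhp2 were the members called in the same direction under all 20 settings run, one of which, with all 4 groups in a single fit, called these 2 genes only (3.75% of all genes were then higher and 5.64% lower).

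Other genes of ribosome production did not lean upward with TSLP. Of 123 further biogenesis factors tested, 25 were higher and 34 lower, near the shares over all genes (22.7% and 23.1%). Their median log2 fold change was -0.01. Other polymerase I and ribosomal DNA factors had 0 higher and 4 lower of 12, among them Cd3eap (-1.24) and Znrd1 (-0.62), both polymerase subunits. Other small subunit factors had 14 higher and 9 lower of 41, with Nol10 (0.55) and Cirh1a (0.50) against Fcf1 (-0.95) and Tsr3 (-0.76). Large subunit factors outside the 45 had 8 higher and 15 lower of 46, with Nol8 (0.67) and Tex10 (0.70) against Nol12 (-1.06) and Gltscr2 (-0.83). Among 10 other snoRNP factors Naf1, an H/ACA assembly factor, was higher (0.61) and Pih1d1 (-0.99) and Znhit6 (-0.61) lower. The RNA exosome, which trims the precursors, had 2 higher and 4 lower of 14, with Dis3 (0.73) and Skiv2l2 (0.54) against Exosc4 (-0.97) and Exosc8 (-0.65). All 9 measured snoRNA host genes outside the list were lower (23.1% of all genes), with a median of -0.52. The median of all genes under 1500 bp was also -0.52, and the part of transcript length in these 9 genes was not tested. Myc itself had 156 and 163 normalised RPKM with TCR + TSLP against 71.6 and 95.4 with TCR (log2 fold change 0.89, SE 0.13, adjusted p = 0.00129).

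Lung Tregs that had lost Crlf2 were compared with control lung Tregs to ask what the TSLP receptor does for these genes in inflamed tissue. None of the 45 members was called in either direction (edgeR quasi-likelihood test, adjusted over 12717 genes, of which 0.771% were higher and 1.01% lower). DESeq2 also called 0 members, with 2.89% of all genes higher and 3.92% lower. At an unadjusted p of 0.05, 0 were higher and 4 lower, beside 6.74% and 9.12% of all genes. Values leaned low, with 35 of 45 log2 fold changes negative (54.2% of all genes) and a median of -0.16, beside -0.04 over all genes. That median turned positive on other scalings, to 0.01 with library totals alone (all genes 0.14) and to 0.17 with limma on log2(RPKM + 1) (all genes 0.21). Relative to all genes the members' median was below 0 under all 21 settings, from -0.17 to -0.04.

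The member with the smallest p was Npm1, at 54.8, 60.0 and 61.5 normalised RPKM in Crlf2-deleted lung against 73.6, 96.2 and 75.9 in control lung. All 3 Crlf2-deleted values lay below all 3 control values, yet the difference was not called (log2 fold change -0.49, SE 0.15, adjusted p = 0.156). Rrp12, in yeast an export factor of both subunits, had 5.89, 2.47 and 6.1 in Crlf2-deleted lung against 8.48, 9.82 and 9.12 in control lung (log2 fold change -0.93, SE 0.33, adjusted p = 0.217). Wdr43, an early small subunit factor, had 18.8, 16.5 and 15.8 in Crlf2-deleted lung against 23.2, 21.7 and 20.5 in control lung (log2 fold change -0.37, SE 0.14, adjusted p = 0.251). Nolc1 had 16.4, 15.5 and 16.4 in Crlf2-deleted lung against 21.5, 18.3 and 19.3 in control lung (log2 fold change -0.32, SE 0.14, adjusted p = 0.311). In these 4 genes the groups did not overlap, which was so for 8 members with the Crlf2-deleted group lower and 2 with it higher (11.6% and 10.5% of all genes). Those 2 were Ubtf and Noc3l. Ubtf had 33.1, 34.5 and 38.0 in Crlf2-deleted lung against 30.1, 28.5 and 28.4 in control lung (log2 fold change 0.26, SE 0.12, adjusted p = 0.328).

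The remaining core members were not called either. Ncl, Fbl, Nop58 and Nhp2 also had all 3 Crlf2-deleted values below all 3 control values. In log2 fold change, Ncl was at -0.29 (SE 0.14), Fbl at -0.34 (SE 0.16), Nop58 at -0.37 (SE 0.20) and Nop56 at -0.13 (SE 0.18). Nhp2, the member that differed most with TSLP, was at -0.42 (SE 0.19) and Dkc1 at -0.25 (SE 0.26). Among the growth proteins, Gnl3 was at -0.45 (SE 0.38) and Lyar at -0.39 (SE 0.24), while Mybbp1a and Ddx21 were near 0 at -0.07 (SE 0.16) and -0.05 (SE 0.16). Polymerase I factors had Polr1a at 0.24 (SE 0.19), Polr1b at -0.38 (SE 0.36) and Rrn3 at -0.30 (SE 0.23). Large subunit factors Nop2, Pes1 and Bop1 were at -0.12 (SE 0.20), -0.13 (SE 0.17) and -0.16 (SE 0.18). Adjusted p-values of these genes ran from 0.324 to 0.916 in the edgeR quasi-likelihood test. With SEs of 0.12 to 0.41 over the 45 members, these values do not show that the genes were alike in the 2 genotypes.

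Of the 123 other biogenesis factors and the 9 other snoRNA host genes, 0 were called higher or lower (0.771% and 1.01% of all genes). Myc had 23.0, 25.4 and 19.4 normalised RPKM in Crlf2-deleted lung against 49.9, 32.5 and 49.3 in control lung. Its groups did not overlap and it fell just short of the threshold (log2 fold change -0.99, SE 0.20, adjusted p = 0.0506). Lung epithelial markers summed to 4430 to 35200 in Crlf2-deleted lung against 31800 to 154000 in control lung, and erythroid markers to 2020 to 2890 against 1940 to 177000. Their part in these values was not tested. Without control lung library 3, where myeloid, B cell and erythroid marker sums were highest, 0 members were called higher or lower (1.95% and 2.17% of all genes). The median was then -0.12 (all genes -0.01). The epithelial marker Scgb1a1 was instead highest in control lung library 1, at 153000 normalised RPKM against 45400 in library 3.

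Control lung Tregs were set against TCR-cultured spleen Tregs to describe how far the genes differ between freshly isolated tissue Tregs and stimulated ones. Tissue, culture, stimulation, Cre genotype and possibly the library kit, which is not stated separately for lung, all change together here and cannot be told apart. In control lung, 43 of 45 members were lower, 0 were higher and 2 were not called (edgeR quasi-likelihood test, 13325 genes, of which 25.5% were higher and 26.3% lower). The median log2 fold change was -1.90, beside 0.00 over all genes. All 6 lung libraries lay below all 4 spleen libraries in 43 of 45 members, beside 30.8% of all genes. With the Crlf2-deleted lung libraries in place of the control lung libraries, an alternative chosen after the data were seen, 44 members were lower and Imp4 was higher (32.7% and 34.6% of all genes), with a median of -1.87.

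The scaffold proteins Npm1, Ncl and Gnl3 showed the widest gaps of the 45 genes. Npm1 had 73.6, 96.2 and 75.9 normalised RPKM in control lung against 977 and 1400 with TCR, 14.2-fold lower (log2 fold change -3.83, SE 0.20, adjusted p = 1.62e-05). Ncl had 26.6, 33.8 and 25.9 in control lung against 362 and 326 with TCR (log2 fold change -3.55, SE 0.16, adjusted p = 9.79e-06). Gnl3, a GTPase that shuttles out of the nucleolus, had 4.33, 5.59 and 9.8 in control lung against 70.1 and 80.9 with TCR (log2 fold change -3.43, SE 0.34, adjusted p = 0.000194). All 3 were more than 10-fold lower in control lung, and the groups were far apart. Nop58, Fbl and Nop56 were at log2 fold changes of -3.10 (SE 0.16), -2.79 (SE 0.15) and -2.69 (SE 0.19), with adjusted p-values from 1.68e-05 to 5.27e-05. Lyar, Nolc1, Mybbp1a and Ddx21 were at -2.94, -2.42, -2.42 and -2.06.

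Members of the other roles spread widely and overlapped these in size. Dkc1 had 7.96, 11.1 and 15.3 normalised RPKM in control lung against 54.9 and 58.5 with TCR (log2 fold change -2.26, SE 0.27, adjusted p = 0.00047). Polr1a, Polr1b, Rrn3 and Ubtf were at -1.62, -1.90, -1.39 and -1.52 in log2 fold change, all past the threshold. Of the large subunit factors, Noc3l was at -3.06, Noc2l at -2.80, Nop2 at -2.11, Bop1 at -1.32 and Pes1 at -1.07, and the role had a median of -1.53. Small subunit factors had a median of -1.31 and the widest range, from -3.02 (Wdr75) to 0.20 (Imp4).

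Only Nop10 and Imp4 were not called. Nop10 had 89.8, 98.7 and 127 normalised RPKM in control lung against 141 and 158 with TCR, and 116 and 114 with TCR + TSLP. Its lung and TCR groups did not overlap, yet the log2 fold change of -0.46 (SE 0.20, adjusted p = 0.0858) was much smaller than those of its particle partners Gar1 (-2.97) and Nhp2 (-2.46). Imp4, which joins the U3 snoRNA to the precursor, had 52.6, 40.8 and 31.6 in control lung against 35.0 and 39.6 with TCR (log2 fold change 0.20, SE 0.24, adjusted p = 0.506). Its direction depended on the scale, at -0.69 on the authors' RPKM (limma on log2(RPKM + 1), adjusted p = 0.032), where the median of all genes was -0.45. With the Crlf2-deleted lung libraries in place of control it stayed positive, at 0.49 (edgeR quasi-likelihood test, adjusted p = 0.0112). Imp4 overlaps an antisense gene, Gm28306, and reads of the 2 cannot be told apart without strand.

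**Figure D5:**
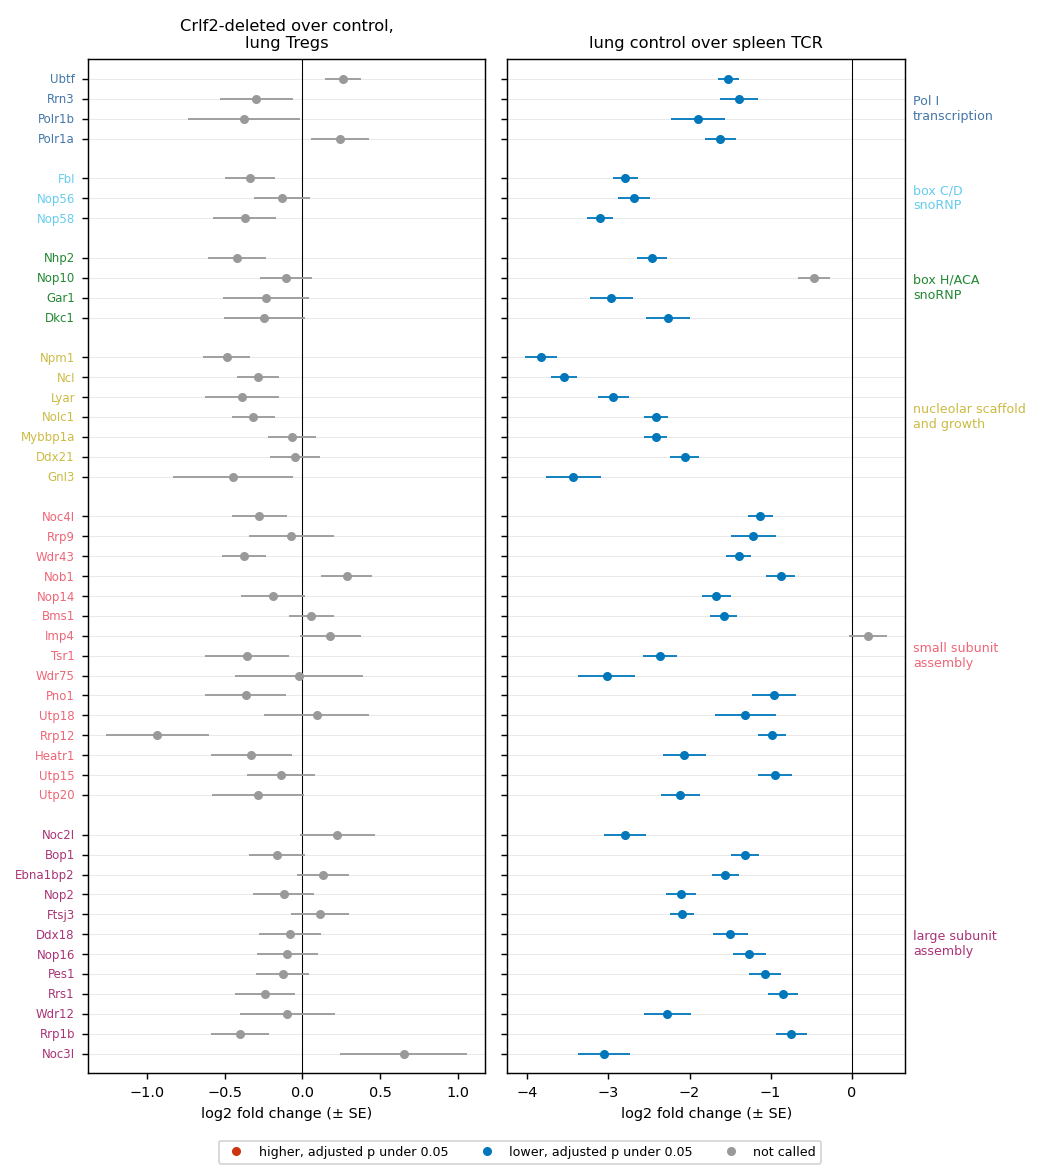
Log2 fold changes with SE are shown for each gene, Crlf2-deleted over control lung on the left and control lung over TCR spleen on the right, on separate scales. No gene is called on the left, and on the right 44 genes lie left of 0, 43 of them called, with Npm1 farthest at -3.83.

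The same direction held for most other genes of the pathway. Of the 123 other biogenesis factors, 91 were lower in control lung and 3 higher, beside 26.3% and 25.5% of all genes. Their median log2 fold change was -1.18, beside 0.00 over all genes. The lower ones included Naf1 (-3.78), Rpf2 (-3.60), Cd3eap (-3.06), Nsa2 (-3.03) and Utp14a (-2.53). The 3 higher ones were Rrp36 (1.29), Abt1 (0.98) and Sbds (0.89). All 9 snoRNA host genes were lower (26.3% of all genes), among them Snhg1 (-3.54) and Gas5 (-2.95). Myc was at 49.9, 32.5 and 49.3 normalised RPKM in control lung against 71.6 and 95.4 with TCR (log2 fold change -0.87, SE 0.23, adjusted p = 0.0154). RNA of other lung cells was present in the lung libraries, with 8 lung epithelial markers summing to 31800 to 154000 in control lung against 14.4 to 17.5 with TCR, and its part in the lower share of the 45 genes was not tested. The T cell marker sum was 1400 to 2120 in control lung against 1970 to 1980 with TCR, so the ranges overlapped. Without control lung library 3, which had the lowest Cd3e level of the 3, 44 members were lower (29.1% of all genes) and the median was -1.73.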

How the data were processed

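The series holds RNA sequencing of mouse Tregs in 10 libraries. The submitters' processing notes name TopHat2 2.2.1, Bowtie2 2.2.6, bedtools 2.25.0, SAMtools 0.1.8 and edgeR, with the mm10 (GRCm38) build. Their roles, the counting and strand rules and the handling of reads with several map positions are not stated there. Per the labels' protocols, TCR-stimulated Tregs were sequenced as single ends from a stranded total RNA kit with ribosomal RNA depletion. Per the file headers, each deposited file holds a whole read count and an RPKM for 31682 transcript rows. The deposited RPKM was scaled by the authors to a total larger than the listed reads, which were 52.9% to 63.8% of it in spleen and 21.2% to 33.8% in lung, so RPKM was used in alternatives only.

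The edgeR package 4.0.16 (R 4.3.3) was used on the deposited counts (quasi-likelihood test, TMM, filterByExpr with a minimum count of 10, robust, two-sided, Benjamini-Hochberg over all genes, threshold 0.05), with only the 2 groups compared in each fit. The SE of a log2 fold change is its size divided by the root of F. Alternatives used limma 3.58.1 on log2 RPKM with a pseudocount of 1 or 0.1 and DESeq2 1.42.0, beside other scalings, filters, a loess trend (span 0.3) on length or on length and GC, summed transcripts, a replicate block, all 4 groups in 1 fit and leaving out each library. All 45 members could be named, and in full those with the smallest p (6 per direction, or 4 where none passed) plus 16 core members. Other pathway genes were named by smallest p, up to 2 per direction and list. The members and lists were chosen with earlier results of these data known. Replicates within a group never agreed within sampling noise (chi-square per degree of freedom 6.4 to 177), so none was merged. The test was checked on simulated counts that held no trend on transcript length, so the check does not cover that trend. Gene positions came from RefSeq, promoters from RefSeq GRCm38.p6, and overlapping genes, snoRNAs in gene spans and GC content from GENCODE vM21. Read counts limit precision most in control lung library 2.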

Additional observations from a re-analysis of the deposited data

How the results depend on the processing

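With 2 or 3 libraries per group, each count of calls rests on few samples, and the shallowest library held 1439675 gene reads. Over 855 gene-by-setting values with TSLP, 681 kept their status as called or not called, 103 lost the call and 71 gained it, and 44 values of 16 genes turned sign, 8 of them in genes called in the results above. For the lung genotypes 0 members were called under any of the settings, while 103 of 871 values turned sign. The setting with a mean RPKM of at least 5 tested only 16 of the 45 members there. For control lung against TCR 819 of 851 kept their status and 3 turned sign. The causes of the moves below were not tested.

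With TSLP, library totals alone gave 29 members higher, 3 lower and a median log2 fold change of 0.37 (all genes 38.3% higher, 15.1% lower, median 0.24). Limma on log2 RPKM gave 27 higher and 1 lower with either pseudocount (medians 0.49 and 0.51). Of all genes, 43% and 42.4% were then higher and 9.45% and 10.3% lower. The medians of all genes were 0.20 and 0.33 on these scales, where Nop16 (0.01 on both) and Wdr12 (0.02 on both) turned sign but stayed below that of all genes. All 4 groups in 1 fit gave 1 higher and 1 lower (3.75% and 5.64% of all genes, median 0.19), with a spread shared with the lung libraries. Removing the length trend left 5 lower (17.4% of all genes), and turned Nop10 to 0.29. Removing length and GC trends turned Nop10 to 0.19 and Gar1 to 0.10. Leaving out each library in turn gave 7 to 24 higher, 3 to 11 lower and medians of 0.12 to 0.20, the lone library then being assumed to vary like its partners.

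For Crlf2-deleted against control lung, the median of -0.16 turned to 0.01 with library totals alone and to 0.17 and 0.25 with limma on log2(RPKM + 1) and log2(RPKM + 0.1). The medians of all genes moved with it, to 0.14, 0.21 and 0.37, and the members' median minus that of all genes was -0.13, -0.04 and -0.12. Without each library the members' median ran from -0.20 to -0.12 (all genes -0.06 to -0.01).

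For control lung against TCR, the median was -1.67 with library totals alone (all genes 0.21). It was -2.17 and -2.70 with limma at pseudocounts of 1 and 0.1 (all genes -0.45 and -0.87), where Imp4 turned to -0.69 and -0.76. A mean RPKM of at least 5 gave -1.47 (all genes -0.08). That setting tested 41 members and called 1 higher and 34 lower (32.5% and 34.1% of all genes). With the Crlf2-deleted lung libraries in place of control, 1 was higher and 44 were lower (34.6% and 32.7% of all genes). Without control lung library 1, 2 or 3, 43, 43 and 44 members were lower (26.8%, 25.8% and 29.1% of all genes). Without TCR library 1 or 2, which left a lone TCR library, the medians were -1.86 and -1.87 (all genes 0.12 in both). Medians over all libraries left out ran from -1.87 to -1.73.

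Deviations from the group mean correlated at -0.13 to 0.08 between same-numbered lung libraries and at -0.13 to 0.17 between differently numbered ones. In spleen the values were -0.12 and 0.12, which are opposite by construction with 2 libraries per group. Whether the libraries were paired therefore stays unknown. With the replicate number as a block, 15 members were higher and 9 lower with TSLP (21.5% and 22.5% of all genes), 0 were called between lung genotypes (median -0.17), and 44 were lower in control lung against TCR (29.4% of all genes, median -1.78). The replicate block with the length trend removed gave 18 higher and 4 lower with TSLP (24% and 16% of all genes, Nop10 at 0.29). The crossed pairing, added after the data were seen, called 20 higher and 9 lower (27% and 26.8% of all genes).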

Other observations

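Genes of the p53 pathway, which senses disturbed ribosome assembly through free ribosomal proteins, were also measured in TCR + TSLP against TCR. Of 12 tested, 5 were higher and 2 lower by edgeR's quasi-likelihood test, beside 22.7% and 23.1% of all genes. Sesn2, a stress-induced regulator of mTORC1, was higher by 1.57 on the log2 scale (SE 0.11, adjusted p = 0.000159). Trp53 was higher by 0.69, Ccng1 by 0.67, the cell cycle inhibitor Cdkn1a by 0.61 and Mdm2, the ligase that degrades p53, by 0.33. Rpl5 and Rpl11, ribosomal proteins that bind Mdm2, were lower, at -1.01 and -0.94. Both transcripts are short, and Rpl5 and Rpl11 have processed pseudogenes that could share reads with them. In control lung against TCR, Sesn1 and Sesn2 were higher, at 1.52 and 0.94, while Rpl5, Rpl11, Phlda3 and Ccng1 were lower, at -4.17, -1.72, -2.92 and -0.62.

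Of 13 tested genes of the Myc network, 4 were higher and 3 lower with TCR + TSLP against TCR, near the shares over all genes. Myc was at 0.89, its antagonist Mxi1 at 0.91, the pyrimidine synthesis enzyme Cad at 0.56 and Mlx at 0.37, and the lower ones were Mxd3 at -0.99, Nme1 at -0.99 and Mxd4 at -0.57. In control lung against TCR, the Myc antagonists Mxd1 and Mxd4 were higher, at 3.26 and 2.53, and Myc was lower, at -0.87.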
